A study of Saccharomyces cerevisiae with 24 samples.

Results

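Transcript levels of budding yeast carrying the linker mutant npl3-P196D-A197D were compared with those of the first-motif mutant npl3-F162Y, both grown at 30 °C. The comparison takes the count columns of these 2 groups, 3 libraries each, which makes 6 of the 24 libraries of the series. Both strains are W303 npl3-shuffle strains of mating type MATa with ade2-1, can1-100, his3-11,15, trp1-1, ura3-1, a leu2 allele and GAL+, in which the only functional NPL3 comes from a pRS315 plasmid, a low-copy vector with the LEU2 marker. The cells grew in rich glucose medium (YPD) to mid-log phase, and polyadenylated RNA was sequenced from total RNA with a stranded mRNA kit. The linker mutant carries the substitutions P196D and A197D between the RNA recognition motifs, the first-motif mutant carries F162Y in the first motif, and wild type, given for orientation, carries NPL3 on the same plasmid (3 libraries at 30 °C). The same 2 mutants were also sampled after a shift to 37 °C for 1 hour (3 libraries each).

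Npl3, a nuclear RNA-binding protein related to SR proteins, joins mRNA as it is made and takes part in splicing, 3-prime end formation and the loading of export factors. Its RNA recognition motifs lie side by side and are joined by a short linker, and both motifs and linker contact RNA. The contrast of the 2 mutants asks where a lesion in the linker and a lesion in the first motif leave the transcriptome in different states.

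The codons that were changed are shown in their coding-strand context in the RefSeq reference genome (build R64), as far as 8 codons on either side. The reference encodes the residue that each allele name gives at that position. The first line spans codons 154 to 170 (chrIV:1329242-1329292, plus strand), with the codon named by F162Y in capitals. The second line spans codons 188 to 205 (chrIV:1329344-1329397, plus strand), with the codons named by P196D and A197D in capitals.
NPL3 coding strand around the first-motif substitution: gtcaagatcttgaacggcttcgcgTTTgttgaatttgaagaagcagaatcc
NPL3 coding strand around the linker substitutions: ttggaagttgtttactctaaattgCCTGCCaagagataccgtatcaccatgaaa

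The NPL3 transcript itself was more abundant in the linker mutant. It stood at 323, 329 and 336 CPM in the linker mutant, against 254, 288 and 274 CPM in the first-motif mutant (CPM, the count divided by the TMM-scaled library size in units of 1e6). Wild type had 207, 206 and 198 CPM (NPL3 lies on chrIV:1328783-1330027, plus strand). All 3 linker mutant libraries lay above all 3 first-motif mutant libraries, which in turn lay above wild type. By the quasi-likelihood test of edgeR the mutants differed by 0.28 on the log2 scale (SE 0.06, Benjamini-Hochberg adjusted p = 0.00121). An exact permutation test of the 6 values (two-sided) gave p = 0.1, the smallest that 3 against 3 libraries allow. LEU2, the marker on the same plasmid, had 361, 397 and 393 CPM in the linker mutant, against 251, 247 and 260 CPM in the first-motif mutant and 298, 283 and 285 CPM in wild type. The LEU2 groups did not overlap either, and the log2 difference between the mutants was 0.60 (SE 0.04). Its reads also include RNA of the chromosomal leu2 allele, and what part plasmid number has in either difference was not tested.

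The libraries of the linker mutant held 15.8, 22.4 and 19.3 M assigned counts and those of the first-motif mutant 27.8, 23.0 and 22.5 M (M, 1e6 counts), so depth differed between the groups without overlap. Pearson's r of log2 CPM across genes was 0.9938 to 0.9949 within the linker mutant, 0.9962 to 0.9969 within the first-motif mutant and 0.9919 to 0.9937 between them. The first principal component held 42.9% of the variance and separated the groups, and the second (20.2%) set linker mutant replicates 1 and 3 apart (12.75 and -12.07). With all libraries thinned to the smallest total, 835 genes passed the test as higher and 712 as lower, close to the values without thinning. The labelled mating type was set beside marker genes, which were not uniform. The a-specific genes MFA1, MFA2, STE2, STE6 and BAR1 ranged from 110 to 585 CPM, and ASG7 from 6.29 to 6.88 CPM. The alpha-factor genes MF(ALPHA)1 and MF(ALPHA)2 reached at most 3.49 CPM. The other alpha-cell genes of the list were higher, with STE3 at 11.5 to 13.7 CPM and SAG1 at 75.2 to 96.6 CPM. Whether the replicates of a strain were grown as separate cultures is not stated, so a p-value here covers the spread among libraries alone. That spread may be technical, and for edgeR it was estimated over all 24 libraries of the series, not these 6.

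Of 6518 genes tested, 918 were higher in the linker mutant (14.1%) and 724 were lower (11.1%), together 25.2%, by edgeR's quasi-likelihood test at an adjusted p under 0.05 with no minimum fold. The differences were small: 32 genes were called and at least 1.5-fold higher (0.491%) and 83 at least 1.5-fold lower (1.27%). Only 20 were called with a 2-fold change (0.307%), 7 higher and 13 lower, and most of these had under 10 CPM. The median over all genes tested was 0.01 on the log2 scale, with 5th and 95th percentiles of -0.50 and 0.30. The counts of the linker mutant lay wholly above those of the first-motif mutant for 26.8% of the genes and wholly below for 22.0%.

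The genes ranked here were protein-coding and passed the test, with a standard name and a mean of at least 10 CPM, leaving out strain markers. The ranking rule also required that the libraries of the 2 mutants did not overlap. For genes named by this ranking, such separation is therefore a condition and not a result. Among the genes ranked, the largest rises in the linker mutant were in YRO2, BNA1, HXT4, SUL2, YGP1, ARO5, AMN1, MET5, STP4 and EFM3. YRO2, which encodes a membrane protein related to Hsp30, had 353, 382 and 390 CPM in the linker mutant, against 222, 215 and 224 CPM in the first-motif mutant (log2 0.77, SE 0.06, adjusted p = 5.77e-10). YGP1, which encodes a secreted glycoprotein, had 1269, 1298 and 1300 CPM in the linker mutant, against 780, 791 and 808 CPM in the first-motif mutant (log2 0.70, SE 0.05). HXT4, a glucose transporter gene, had 198, 209 and 210 CPM in the linker mutant, against 119, 122 and 124 CPM in the first-motif mutant (log2 0.76, SE 0.05). For each of these 3 genes wild type lay above the linker mutant: 398 to 442 CPM for YRO2, 1538 to 1784 CPM for YGP1 and 215 to 247 CPM for HXT4. The largest falls by the same ranking were in SPG4, PHO89, HSP30, HSP26, NDC80, RRP14, SSP2, DPA10 (-0.74), POT1 and CYC7. YPR145C-A, outside the ranking for want of a standard name, fell by 1.08 (chosen after its value was seen). Its means were 10.2 CPM in the linker mutant and 21.6 CPM in the first-motif mutant.

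**Figure D1:**
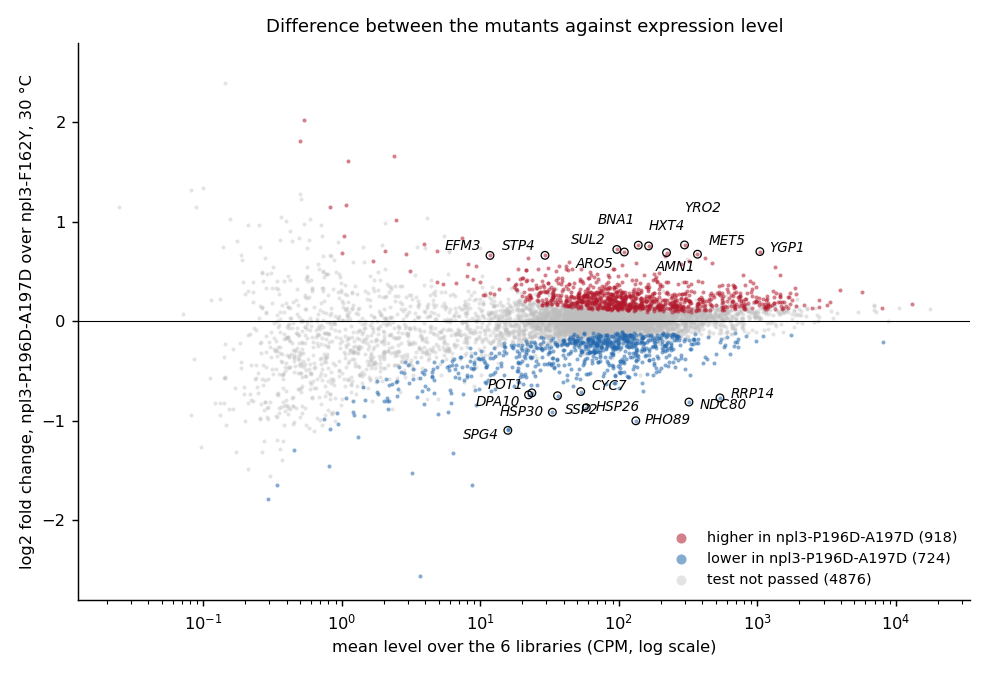
The x axis gives the mean level over the 6 libraries (CPM, log scale) and the y axis the log2 fold change of npl3-P196D-A197D over npl3-F162Y at 30 °C, 1 point per gene tested, with the 10 largest rises and 10 largest falls of the naming rule circled. Red points are the 918 genes higher in the linker mutant and blue points the 724 lower; most of the points beyond 1 in either direction have low levels.

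Genes for taking up sulfate and making methionine were higher in the linker mutant as a group. Yeast reduces sulfate stepwise to sulfide, builds it into homocysteine and methionine, and switches the pathway on through Met4, which is brought to DNA by Cbf1 at CACGTG and by Met31 and Met32 at CTGTGGC. Of 24 genes tested in this list, 18 were higher in the linker mutant and 0 were lower. Over all genes tested 14.1% were higher and 11.1% lower. The list's median log2 fold change was 0.33, against 0.01 over all genes tested. SUL2, a sulfate permease gene, had 120, 128 and 113 CPM in the linker mutant, against 73.1, 73.2 and 72.4 CPM in the first-motif mutant and 30.5, 31.0 and 26.1 CPM in wild type (log2 0.72, SE 0.05, adjusted p = 1.4e-09). MET3, the ATP sulfurylase gene that opens the reduction, had 247, 265 and 279 CPM in the linker mutant, against 173, 158 and 171 CPM in the first-motif mutant and 140 to 142 CPM in wild type (log2 0.66, SE 0.04). MET5, a subunit of sulfite reductase, had 442, 458 and 461 CPM in the linker mutant, against 281, 288 and 285 CPM in the first-motif mutant and 304 to 335 CPM in wild type (log2 0.67, SE 0.04). The groups of the 2 mutants did not overlap in MET3, and for SUL2 and MET5 the ranking rule required this. Wild type was the lowest strain for SUL2 and MET3 but lay above the first-motif mutant for MET5. The members that did not pass were CYS3, MET13, MET32, MMP1, SAM1 and SUL1 (chosen for having missed the test), with log2 values of 0.00, 0.08, -0.14, 0.07, 0.09 and -0.21. Both comparisons with wild type share the NPL3 libraries: the list's median log2 fold change was 0.46 for the linker mutant over NPL3 and -0.04 for the first-motif mutant over NPL3.

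The promoters of MET3 (chrX:455849-456008, plus strand, 390 to 231 bases before the start codon) and SUL2 (chrXII:323194-323273, plus strand, 350 to 271 bases before the start codon) are shown because they belong to the leading members and hold both motifs. Capitals mark CACGTG, which reads the same on both strands, and CTGTGGC or its complement GCCACAG, and no marked matches overlap.
MET3 promoter: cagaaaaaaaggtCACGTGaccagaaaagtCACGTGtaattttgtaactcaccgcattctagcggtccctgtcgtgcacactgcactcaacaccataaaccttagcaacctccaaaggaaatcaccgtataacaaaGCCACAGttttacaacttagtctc
SUL2 promoter: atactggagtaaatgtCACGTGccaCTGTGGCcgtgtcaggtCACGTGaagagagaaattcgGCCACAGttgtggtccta

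In the 400 bases before the start codon, searched on both strands, CACGTG was found in 15 of the 24 sulfate and methionine genes (62.5%), against 294 of 5782 protein-coding genes tested (5.08%). The 15 holders had a median log2 fold change of 0.39 and the 9 other members 0.20. CTGTGGC was found in 9 of the 24 (37.5%), against 2.97% of all, and its holders had a median of 0.22, against 0.39 for the members without it. Over all 294 holders of CACGTG the median was 0.03. The 24 phosphate starvation genes, whose activator Pho4 also binds this hexamer, held it in 15 cases too, and those 15 had a median of 0.08. A match is a description of the sequence and not a shown binding site.

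Most genes in 5 amino acid synthesis lists were higher in the linker mutant, and 2 further lists had fewer higher genes. In yeast these genes share the activator Gcn4, which binds TGACTC and related sites. All 9 arginine genes tested were higher, against 14.1% of all genes, with a median log2 fold change of 0.34. ARG3, ornithine carbamoyltransferase, had 154, 156 and 169 CPM in the linker mutant, against 107, 108 and 103 CPM in the first-motif mutant and 113 to 128 CPM in wild type (log2 0.59, SE 0.07, adjusted p = 8.03e-07). ARG1, argininosuccinate synthetase, had 741, 745 and 754 CPM in the linker mutant, against 588, 570 and 574 CPM in the first-motif mutant and 342 to 359 CPM in wild type (log2 0.37, SE 0.04). ARG4, argininosuccinate lyase, had 749, 773 and 779 CPM in the linker mutant, against 604, 587 and 602 CPM in the first-motif mutant and 506 to 526 CPM in wild type (log2 0.36, SE 0.03). The mutant groups did not overlap for any of these, and for ARG1 and ARG4 both mutants lay above wild type in every library. The list's median log2 fold change was 0.42 for the linker mutant over NPL3 and 0.16 for the first-motif mutant over NPL3, in comparisons that share the NPL3 libraries.

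The ARG1 promoter (chrXV:218851-218960, plus strand, 360 to 251 bases before the start codon) is shown because all 9 arginine genes held TGACTC or its complement GAGTCA in their 400 bases, against 611 of 5782 protein-coding genes (10.6%). Capitals mark the matches, 1 on each strand.
ARG1 promoter: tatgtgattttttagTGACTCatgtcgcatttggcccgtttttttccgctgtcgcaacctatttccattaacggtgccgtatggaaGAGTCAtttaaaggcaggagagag

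Over all genes, TGACTC holders had a median log2 fold change of 0.03, close to the 0.02 of protein-coding genes as a whole. The list counts that follow stand against 14.1% of all genes higher and 11.1% lower. Of 6 histidine genes, 5 were higher in the linker mutant and 0 lower (median 0.20). HIS4, a multifunctional enzyme of that pathway, had 892, 896 and 960 CPM in the linker mutant, against 655, 664 and 670 CPM in the first-motif mutant and 405 to 442 CPM in wild type (log2 0.47, SE 0.04). Of 10 lysine genes, 8 were higher and 0 lower (median 0.17). LYS20, which encodes homocitrate synthase and has the near-identical copy LYS21, differed by 0.36 and LYS12 by 0.27 on the log2 scale. Of 13 aromatic amino acid genes, 8 were higher and 0 lower (median 0.15), among them ARO1, the pentafunctional enzyme of the shikimate pathway (0.27). Of 12 genes for glutamate, glutamine, proline and asparagine, 8 were higher and 1 was lower (median 0.15), and ASN1, an asparagine synthetase gene, stood at 2028, 2061 and 2118 CPM in the linker mutant, against 1653, 1631 and 1635 CPM in the first-motif mutant (log2 0.34, SE 0.04). The lysine count was 5 without linker mutant replicate 1, 4 without linker mutant replicate 3 and 5 without replicate 1 or 2 of the first-motif mutant, and the aromatic count was 5 without linker mutant replicate 3. Of 12 branched chain genes, 3 were higher and 3 lower (median 0.08), with 1 higher without linker mutant replicate 3 and 1 lower without linker mutant replicate 1. Of 17 genes of serine, glycine and threonine metabolism, 6 were higher (35.3%) and 3 lower (17.6%), with a median of 0.10. Without linker mutant replicate 2 or first-motif mutant replicate 1 or 3, 3 were higher.

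Most genes for the mitochondrial ribosome were higher in the linker mutant. Its proteins are encoded in the nucleus, and many of their mRNAs carry a TGTANATA element after the stop codon (N is any base), which the RNA-binding protein Puf3 recognizes. Of 73 mitochondrial ribosomal protein genes tested, 61 were higher in the linker mutant (83.6%, against 14.1% of all genes), 1 was lower and 11 did not pass, with a median log2 fold change of 0.25. In 69 of the 73 the linker mutant libraries lay wholly above those of the first-motif mutant, against 26.8% of all genes. MRPL8 had 101, 97.8 and 92.9 CPM in the linker mutant, against 70.6, 68.9 and 71.2 CPM in the first-motif mutant (log2 0.47, SE 0.04, adjusted p = 4.19e-08). RSM25 had 98.1, 98.8 and 97.4 CPM in the linker mutant, against 76.0, 70.4 and 70.3 CPM in the first-motif mutant (log2 0.44, SE 0.05). RSM27 had 61.0, 61.3 and 58.0 CPM in the linker mutant, against 45.3, 45.6 and 45.2 CPM in the first-motif mutant (log2 0.41, SE 0.07). All 3 were highest in wild type, at 147 to 150, 127 to 135 and 75.7 to 76.9 CPM, so the linker mutant lay between the other strains. The list was drawn by gene name, which does not show that each member is part of this ribosome. MRP8, in the list by its name alone, was the single member called lower, by 0.15 on the log2 scale. Over NPL3 it was higher in the linker mutant (0.39) and in the first-motif mutant (0.54), unlike nearly all other members. MRPL27 stood at -0.01 (both genes were chosen after their values were seen). The call for MRP8 was lost whichever single library was left out. Over NPL3, 70 of the 73 were lower in the linker mutant (31.7% of all genes were; median -0.34) and 71 in the first-motif mutant (38.6% of all genes were; median -0.59), in comparisons that share the NPL3 libraries.

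The elements of the 3 leading members are shown with 6 bases on each side, read along the mRNA strand, with the 8-base match in capitals. MRPL8 is on chrX:315719-315738 (minus strand, bases 21 to 40 after the stop codon), RSM25 on chrIX:187938-187957 (minus strand, bases 33 to 52) and RSM27 on chrVII:922552-922571 (plus strand, bases 45 to 64).
MRPL8 element: ttccctTGTAAATAtataga
RSM25 element: ccaaccTGTATATAattaaa
RSM27 element: atttcaTGTACATAcaaaat

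Searched on the sense strand in the 200 bases after the stop codon, TGTANATA was found in 71 of the 73 mitochondrial ribosomal protein genes (97.3%), against 836 of 5782 protein-coding genes tested (14.5%). Of the 836 holders, 270 were higher in the linker mutant (32.3%) and 66 lower (7.89%). Of the 4946 genes without it, 633 were higher (12.8%) and 593 lower (11.99%). Leaving out the mitochondrial ribosomal proteins, 209 of 765 holders were higher (27.3%) and 66 lower (8.63%). Read the other way, 29.9% of the higher genes and 10.0% of the lower genes held the element. The medians were close to each other, 0.07 with and 0.01 without the element. These shares are descriptions with no test, and the letters alone do not show that Puf3 bound these mRNAs.

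**Figure D2:**
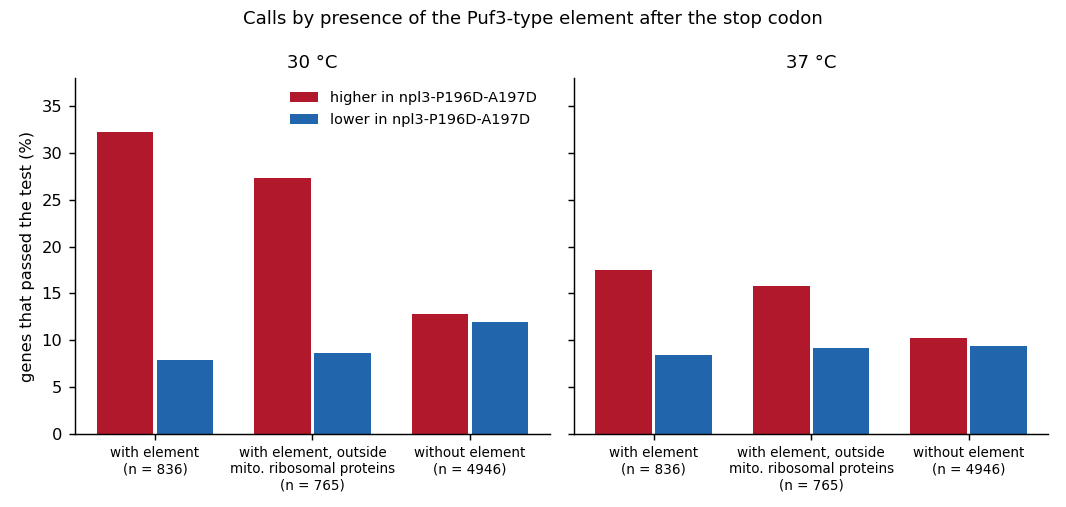
Bars give the percentage of genes that passed the test as higher (red) or lower (blue) in npl3-P196D-A197D against npl3-F162Y, for genes with the TGTANATA element after the stop codon, for the holders outside the mitochondrial ribosomal proteins and for genes without it, at 30 °C (left) and 37 °C (right). At 30 °C 32.3% of the 836 holders were higher, against 12.8% of the 4946 genes without the element.

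In the respiratory chain and ATP synthase list 14 of 37 were higher (37.8%, against 14.1% of all genes) and 1 lower, with a median of 0.12. COX4, a subunit of cytochrome c oxidase, had 305, 310 and 280 CPM in the linker mutant, against 242, 248 and 248 CPM in the first-motif mutant and 378 to 398 CPM in wild type (log2 0.28, SE 0.04). The 1 lower member was CYC7, the cytochrome c isoform of hypoxic cells, with 41.2, 41.5 and 38.2 CPM in the linker mutant, against 67.4, 62.5 and 67.1 CPM in the first-motif mutant (log2 -0.70, SE 0.13). In the TCA and glyoxylate list 8 of 23 were higher (34.8%) and 1 lower (median 0.11), with SDH1, the flavoprotein of succinate dehydrogenase, at 0.30. Of 17 glycolysis and fermentation genes, 9 were higher (52.9%) and 0 lower (median 0.16). TDH1, a glyceraldehyde-3-phosphate dehydrogenase isozyme, had 482, 518 and 529 CPM in the linker mutant, against 338, 317 and 325 CPM in the first-motif mutant (log2 0.64, SE 0.06), while TDH2, which has the near-identical copy TDH3, differed by 0.31. Without linker mutant replicate 2 the respiratory count was 7 and the TCA count 4, and without replicate 2 or 3 of the first-motif mutant the TCA count was 4. In a fit of only the 6 libraries compared the counts were 24 and 13.

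The NAD synthesis list holds genes of de novo synthesis, salvage and uptake. In it 9 of 13 were higher in the linker mutant (69.2%), 0 were lower and the median was 0.24. Over all genes 14.1% were higher and 11.1% lower. BNA1, the 3-hydroxyanthranilate dioxygenase that takes part in making NAD from tryptophan, had 163, 176 and 183 CPM in the linker mutant, against 104, 101 and 102 CPM in the first-motif mutant and 156 to 169 CPM in wild type (log2 0.77, SE 0.04, adjusted p = 3.34e-11). The linker mutant overlapped wild type and lay wholly above the first-motif mutant, which the ranking rule required. BNA7 and BNA5, further kynurenine pathway enzymes, differed by 0.44 and 0.42. Of 25 genes of oxidative defence, 11 were higher (44.0%) and 1 lower (4.0%), with a median of 0.12. SOD1 and SOD2, the superoxide dismutases of the cytosol and the mitochondrion, differed by 0.36 and 0.38, and AAD4, an aryl-alcohol dehydrogenase-like gene, by 0.41.

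Most genes of the daughter cell list were higher in the linker mutant. After cytokinesis the daughter makes enzymes that dissolve the septum holding it to its mother. Of 19 genes tested, 13 were higher (68.4%, against 14.1% of all genes), 1 was lower and the median log2 fold change was 0.28. AMN1, a daughter-specific antagonist of mitotic exit, had 266, 274 and 277 CPM in the linker mutant, against 169, 175 and 162.4 CPM in the first-motif mutant and 386 to 421 CPM in wild type (log2 0.69, SE 0.05, adjusted p = 6.34e-10). SCW11, a cell wall glucanase-like gene, had 210, 209 and 206 CPM in the linker mutant, against 152, 154 and 157 CPM in the first-motif mutant and 322 to 345 CPM in wild type (log2 0.43, SE 0.05). DSE2, a daughter-specific wall protein, differed by 0.48 (SE 0.08). For all 3 the linker mutant lay between the first-motif mutant and wild type in every library. The 1 lower member was SWI5, a transcription factor gene, at -0.14 (chosen after its value was seen), a call lost whichever single library was left out. Of 15 genes of G2 and M phase, 0 were higher and 7 lower (46.7%, against 11.1% of all genes), with a median of -0.13. The count of lower ones fell to 3 or 4 without linker mutant replicate 2 or any 1 of the first-motif mutant replicates.

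Cytosolic ribosomal protein genes differed by less but nearly always in 1 direction. Of 137 tested, 59 were higher in the linker mutant (43.1%, against 14.1% of all genes) and 0 lower, with a median log2 fold change of 0.14. In 118 of them the linker mutant libraries lay wholly above those of the first-motif mutant, against 26.8% of all genes. RPL8A was the leading member, with 575, 540 and 567 CPM in the linker mutant, against 370, 388 and 360 CPM in the first-motif mutant and 781 to 834 CPM in wild type (log2 0.59, SE 0.06, adjusted p = 1.9e-07). It has the near-identical copy RPL8B, so reads could have been split between them by the counting. RPL22B, an intron-containing gene, had 178, 182 and 182 CPM in the linker mutant, against 141, 152 and 145 CPM in the first-motif mutant (log2 0.31, SE 0.08), and RPL7B, with the copy RPL7A, differed by 0.40. Relative to NPL3 the list's median was -0.31 in the linker mutant and -0.45 in the first-motif mutant, with the NPL3 libraries shared. Without replicate 3 of the first-motif mutant 39 of these genes passed, and 110 passed when only the 6 libraries compared were fitted.

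**Figure D3:**
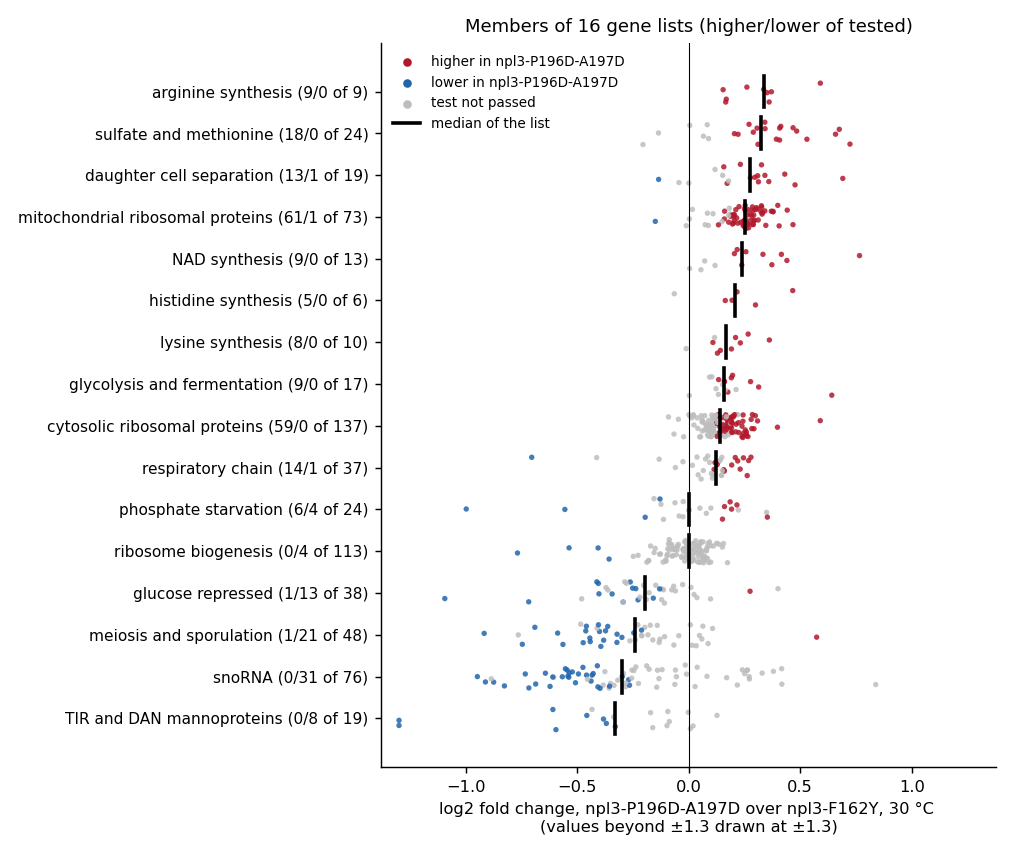
Each point is 1 tested gene of a list, with the log2 fold change of npl3-P196D-A197D over npl3-F162Y at 30 °C on the x axis, red where higher, blue where lower and grey where the test was not passed; black bars are list medians and the labels give the counts higher and lower of those tested. The arginine, sulfate and mitochondrial ribosome lists have medians right of 0, at 0.34, 0.33 and 0.25, and the snoRNA and TIR and DAN lists left of it, at -0.30 and -0.33.

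PHO89 fell in the linker mutant. It encodes a sodium-coupled phosphate transporter of the phosphate starvation response. PHO89 had 85.7, 89.3 and 90.0 CPM in the linker mutant, against 182, 178 and 170 CPM in the first-motif mutant and 9.39 to 9.47 CPM in wild type (log2 -0.999, SE 0.06, adjusted p = 3.34e-11). Both mutants were therefore far above wild type, with the linker mutant wholly below the first-motif mutant, as the ranking rule required. The phosphate starvation list as a whole, which includes PHO89, did not follow this fall. Of 24 genes tested, 6 were higher in the linker mutant and 4, PHO89 among them, were lower. The shares over all genes tested were 14.1% higher and 11.1% lower. The list's median log2 fold change was 0.00. PHM7 was lower, with 16.7, 16.2 and 14.5 CPM in the linker mutant, against 25.2, 20.1 and 24.1 CPM in the first-motif mutant (log2 -0.56, SE 0.12). GPP2 was higher, with 216, 232 and 216 CPM in the linker mutant, against 170, 175 and 175 CPM in the first-motif mutant (log2 0.35, SE 0.04). VTC1, VTC2, VTC3 and VTC4, which encode subunits of the polyphosphate polymerase complex, were also among the higher ones, at 0.22, 0.19, 0.19 and 0.16. PHO84 (0.22) and PHO5 (0.00), the high-affinity transporter and the secreted acid phosphatase, did not pass (these 6 genes were chosen after their values were seen). Over NPL3, 21 of the 24 were higher in the linker mutant (24.1% of all genes were) and 21 in the first-motif mutant (29.8% of all genes were), with a median of 1.003 in the linker mutant and 1.105 in the first-motif mutant, in comparisons that share the NPL3 libraries.

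Of 38 glucose-repressed and gluconeogenic genes, which cells in glucose keep low, 13 were lower in the linker mutant (34.2%, against 11.1% of all genes), 1 was higher, 24 did not pass and the median log2 fold change was -0.20. SPG4, needed for survival of resting cells at high temperature, had 11.4, 9.63 and 9.33 CPM in the linker mutant, against 23.7, 21.3 and 19.3 CPM in the first-motif mutant and 3.78 to 3.93 CPM in wild type (log2 -1.09, SE 0.12, adjusted p = 6.69e-07). POT1, the thiolase of peroxisomal fatty acid oxidation, had 18.5, 18.5 and 16.5 CPM in the linker mutant, against 31.8, 26.3 and 29.7 CPM in the first-motif mutant and 6.09 to 7.37 CPM in wild type (log2 -0.72, SE 0.09). IDP2, the cytosolic isocitrate dehydrogenase, fell by 0.41. Both mutants exceeded wild type in SPG4 and POT1, and neither overlapped it. The ranking rule required that the mutants did not overlap each other. The count of lower genes was 8 without linker mutant replicate 3, 6 without replicate 1 of the first-motif mutant and 22 when only the 6 libraries compared were fitted. Among hexose transporters 3 of 19 were higher (15.8%, near the 14.1% of all genes) and 5 lower (26.3%). HXT4 and HXT1, at 0.76 and 0.40, rose in the linker mutant. HXT5, the transporter of slow-growing cells, had 18.8, 18.5 and 16.7 CPM in the linker mutant, against 28.8, 27.3 and 28.1 CPM in the first-motif mutant (log2 -0.64, SE 0.09). The call for HXT1 was lost without linker mutant replicate 2 or 3 or first-motif mutant replicate 1 or 3.

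Genes of the general stress list were more often lower than higher in the linker mutant. Of 52 genes under Msn2 and Msn4, 5 were higher (9.6%, against 14.1% of all genes). In the other direction 16 were lower (30.8%, against 11.1% of all genes), and the median was -0.15. YRO2 and YGP1, among the 10 largest rises named above, belong to it, as does HSP30, a stress protein of the plasma membrane that stood at 22.9, 25.8 and 20.04 CPM in the linker mutant, against 47.0, 41.7 and 41.0 CPM in the first-motif mutant and 14.5 to 17.5 CPM in wild type (log2 -0.91, SE 0.24, adjusted p = 0.0091). Of 32 heat shock genes under Hsf1, 0 were higher and 3 lower (9.38%, against 11.1% of all genes). HSP26, a small heat shock protein gene, had 45.2, 42.8 and 35.7 CPM in the linker mutant, against 76.0, 76.1 and 73.2 CPM in the first-motif mutant and 74.3 to 79.9 CPM in wild type (log2 -0.87, SE 0.08). In HSP26 the first-motif mutant overlapped wild type, and the linker mutant lay wholly below both. The ranking rule required its separation from the first-motif mutant. SSA3, an Hsp70 gene, fell by 0.40. Fitting only the 6 libraries compared gave 29 lower general stress genes and 13 lower heat shock genes.

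The TIR and DAN family, cell wall mannoproteins that yeast makes in the cold or without oxygen, had 8 of 19 members lower in the linker mutant (42.1%, against 11.1% of all genes), 0 higher, 11 that did not pass and a median of -0.33. TIR3 had 16.04, 15.1 and 14.2 CPM in the linker mutant, against 22.6, 22.8 and 23.7 CPM in the first-motif mutant and 11.4 to 13.1 CPM in wild type (log2 -0.61, SE 0.10). TIR4 and TIR2 fell by 0.38 and 0.46. DAN1, the largest fitted fall among all genes tested, and TIR1 belong to this family and were chosen after their values were seen. DAN1 had 0.74, 0.76 and 1.66 CPM in the linker mutant, against 6.79, 5.22 and 6.71 CPM in the first-motif mutant and 0.27 to 0.41 CPM in wild type (log2 -2.56). TIR1 had 5.01, 4.00 and 3.64 CPM in the linker mutant, against 12.2, 13.5 and 13.6 CPM in the first-motif mutant and 2.73 to 3.45 CPM in wild type (log2 -1.64). In both genes the strains did not overlap, and the linker mutant was nearer to wild type. With a minimum mean of 10 CPM, 5 members of the family passed as lower.

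Meiosis and sporulation genes, which haploid cells in rich medium keep at low levels, were lower in the linker mutant in 21 of 48 cases (43.8%, against 11.1% of all genes) and higher in 1, with a median log2 fold change of -0.24. SSP2, which acts in spore wall assembly, had 26.5, 25.7 and 28.7 CPM in the linker mutant, against 46.7, 46.2 and 42.5 CPM in the first-motif mutant and 10.6 to 11.0 CPM in wild type (log2 -0.75, SE 0.07, adjusted p = 7.58e-08). ZIP1, of the synaptonemal complex, had 42.2, 36.4 and 39.9 CPM in the linker mutant, against 60.0, 55.6 and 59.0 CPM in the first-motif mutant and 26.7 to 28.8 CPM in wild type (log2 -0.56, SE 0.08). GAS2, a glucanosyltransferase of the spore wall, fell by 0.47 (SE 0.06). The order of the strains was the same in SSP2 and ZIP1, with wild type lowest, the linker mutant between and the first-motif mutant highest. Over NPL3 the list's median was 0.57 in the linker mutant and 0.83 in the first-motif mutant, with the NPL3 libraries shared.

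Small nucleolar RNAs guide modification of ribosomal RNA and end without a long poly(A) tail, so an mRNA library holds few reads of them. Of 76 tested, 31 were lower in the linker mutant (40.8%, against 11.1% of all genes) and 0 were higher, with a median log2 fold change of -0.30. A negative median was not particular to them. It was -0.16 for 92 tRNAs (4 lower, 2 higher) and -0.15 for 15 ncRNAs (2 lower, 1 higher). For 493 mRNA features outside the reference gene table it was -0.25 (25 lower, 6 higher). Retrotransposon features had a median of 0.22 and other protein-coding genes 0.02. SNR82 had 19.9, 21.1 and 19.8 CPM in the linker mutant, against 29.9, 29.6 and 29.3 CPM in the first-motif mutant and 16.4 to 18.8 CPM in wild type (log2 -0.55, SE 0.07, adjusted p = 7e-06). SNR64 had 12.1, 11.0 and 13.0 CPM in the linker mutant, against 16.8, 19.5 and 15.998 CPM in the first-motif mutant and 7.02 to 7.19 CPM in wild type (log2 -0.54, SE 0.10). SNR32 had 8.62, 7.82 and 9.72 CPM in the linker mutant, against 13.2, 12.8 and 14.1 CPM in the first-motif mutant (log2 -0.62, SE 0.11). The mutants did not overlap in these 3 RNAs. Over NPL3 the list's median was 0.02 in the linker mutant and 0.31 in the first-motif mutant, with the NPL3 libraries shared. A minimum mean of 10 CPM left 13 lower snoRNAs, and the counts do not tell tailed from mature forms.

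**Figure D4:**
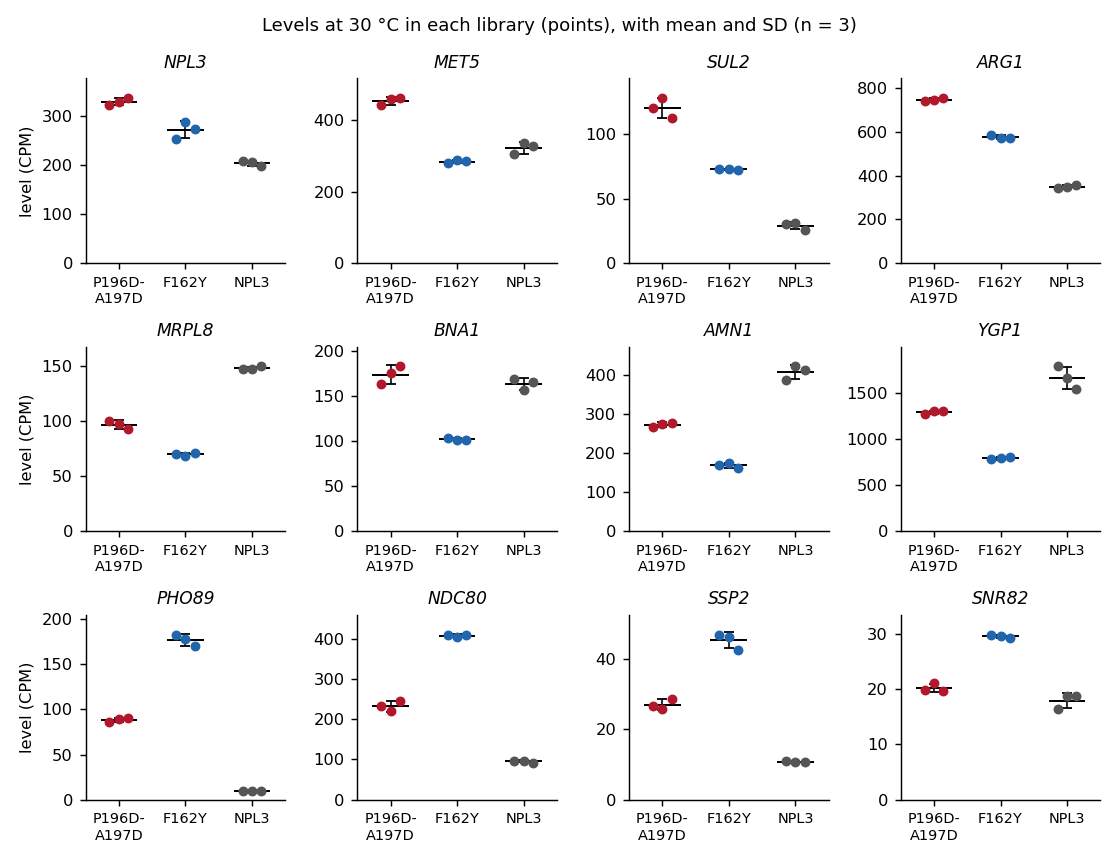
Each panel gives the level of 1 gene in CPM at 30 °C, with 1 point per library, the mean as a line and the SD as an error bar (n = 3), for npl3-P196D-A197D (red), npl3-F162Y (blue) and NPL3 (grey). The mutants do not overlap in any of the 12 genes. The ranking rule required this for MET5, SUL2, BNA1, AMN1, YGP1, PHO89, NDC80 and SSP2. Over all genes tested the linker mutant lay wholly above the first-motif mutant for 26.8% and wholly below for 22.0%. Wild type lies on the far side of the linker mutant for MRPL8, AMN1 and YGP1. It lies below both mutants for NPL3, SUL2, ARG1, PHO89, NDC80, SSP2 and SNR82.

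Genes that work with Npl3 are given against the 14.1% of all genes that were higher and the 11.1% that were lower. Among 7 genes for NPL3, its SR-like relatives and its modifiers, NPL3 was higher and GLC7, the phosphatase that acts on Npl3, was lower, with 517, 519 and 541 CPM in the linker mutant, against 640, 633 and 611 CPM in the first-motif mutant and 385 to 405 CPM in wild type (log2 -0.26, SE 0.04). GBP2, HRB1, HMT1, MTR10 and SKY1 did not pass (chosen for having missed the test). Of 36 mRNP assembly and export genes, 2 were higher (5.56%) and 5 lower (13.9%), with a median of 0.02, the lower ones including MLP1 and MLP2 of the nuclear basket at -0.34 and -0.38. MLP1 had 212, 181 and 213 CPM in the linker mutant, against 260, 250 and 255 CPM in the first-motif mutant and 105 to 137 CPM in wild type, with linker mutant replicate 2 lowest. Without that library 2 of the 36 were lower and neither MLP gene passed, and without replicate 3 of the first-motif mutant 3 were lower, again without the MLP genes. MLP1 also did not pass without replicate 1 of the first-motif mutant. Of 74 splicing genes, 3 were higher (4.05%) and 11 lower (14.9%), with a median of -0.05. CWC15 had 70.9, 72.9 and 70.5 CPM in the linker mutant, against 97.5, 98.8 and 94.7 CPM in the first-motif mutant and 48.5 to 51.8 CPM in wild type (log2 -0.44, SE 0.07). Without linker mutant replicate 2 the count of lower splicing genes was 7, and it was 21 when only the 6 libraries compared were fitted. Of 179 intron-containing genes outside the ribosomal proteins, 25 were higher (13.97%) and 16 lower (8.94%), with a median of 0.03. The count of higher ones was 14 without linker mutant replicate 2, 12 without replicate 1 and 16 without replicate 3 of the first-motif mutant. These counts are per gene and do not separate spliced from unspliced RNA.

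NDC80 and RRP14 were among the largest falls. NDC80, a kinetochore gene, had 232, 220 and 246 CPM in the linker mutant, against 410, 404 and 410 CPM in the first-motif mutant and 92.5 to 97.1 CPM in wild type (log2 -0.81, SE 0.05, adjusted p = 7.25e-11). RRP14, a ribosome biogenesis gene, had 406, 366 and 419 CPM in the linker mutant, against 712, 650 and 666 CPM in the first-motif mutant and 174 to 217 CPM in wild type (log2 -0.77, SE 0.13). In both, wild type was lowest and overlapped neither mutant, while the ranking rule required that the mutants were apart. Of the 113 ribosome biogenesis genes 0 were higher, 4 were lower (3.54%, against 11.1% of all genes) and the median was 0.00. The others that fell were NOP8, NOP53 and NOP16 at -0.54, -0.41 and -0.36 (the last chosen after its value was seen). NOP53 did not pass without linker mutant replicate 2, and in a fit of only the 6 libraries compared 24 of the list were lower.

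The following features are descriptions with no test. Lower protein-coding genes had a median coding span of 1542 bp and higher genes 1056 bp, against 1206 bp over 5778 genes. Introns were annotated in 7.75% of the higher genes and 2.43% of the lower genes, against 4.64% of all. These shares include ribosomal protein genes. Outside them 13.97% of the intron-containing genes were higher and 8.94% lower, against 14.1% and 11.1% of all genes. The upstream neighbour lay on the same strand for 55.04% of the higher genes and 46.9% of the lower ones, against 48.3% of all. Across 5340 genes, which are not independent, the log2 fold change had a Pearson r of 0.17 with log2 CPM and -0.11 with log2 gene span. Span, level and group identity overlap (ribosomal protein genes are short and highly expressed), and the part of library preparation in these relations was not tested.

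The same 2 mutants after 1 hour at 37 °C share no library with the comparison at 30 °C. There 675 genes were higher in the linker mutant (10.4%) and 582 lower (8.93%), together 19.3% of 6518. Of the 1642 genes called at 30 °C, 1581 (96.3%) had the same sign at 37 °C, against 5000 of all 6518 genes tested (76.7%). Of the 1642, 879 (53.5%) passed at 37 °C in the same direction, against 18.8% of all genes, and 3 passed in the opposite one. The genes called at both temperatures, 882, made up 53.7% of the genes called at 30 °C and 70.2% of those called at 37 °C. Across all 6518 genes Pearson's r between the log2 fold changes was 0.60, given as a description, since genes are not independent. The sulfate and methionine list had a median of 0.23 at 37 °C (16 higher, 1 lower), the arginine list 0.29 (8 higher), the NAD list 0.21 (9 higher) and the daughter cell list 0.24 (12 higher). The mitochondrial ribosomal protein list had a median of 0.12, with 25 of 73 higher. The snoRNA list had -0.18 (16 lower, 1 higher), the TIR and DAN list -0.27 (10 lower) and the meiosis list -0.19 (16 lower, 1 higher). PHO89 again stood apart, with means of 25.7 CPM in the linker mutant and 54.4 CPM in the first-motif mutant at 37 °C (log2 -1.09). NPL3 stood at 299 CPM in the linker mutant and 255 CPM in the first-motif mutant (log2 0.23 at 37 °C).

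Whether the mutant difference itself changed with temperature was tested by the interaction, which called 18 of 6518 genes (0.276%), 11 with a higher and 7 with a lower linker mutant against first-motif mutant difference at 37 °C. HSP26, NDC80, ARG1 and TIR1 were among the 11, and MET3, GPP2 and CTR1 among the 7. HSP26 had 1770 CPM in the linker mutant and 2096 CPM in the first-motif mutant at 37 °C, a log2 fold change of -0.24 against -0.87 at 30 °C. ARG1 had 310 CPM in the linker mutant and 195.7 CPM in the first-motif mutant at 37 °C, a log2 fold change of 0.66 against 0.37 at 30 °C. At an unadjusted p under 0.05 the interaction marked 537 genes (8.24%). The count was 8 without replicate 2 of each strain at 37 °C, whose sample numbers start differently from the rest. It was 11 and 8 without linker mutant replicate 1 or 2 at 30 °C, 9 without first-motif mutant replicate 1 or 3 at 30 °C, 10 without linker mutant replicate 3 at 37 °C and 11 without first-motif mutant replicate 2 at 37 °C.

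**Figure D5:**
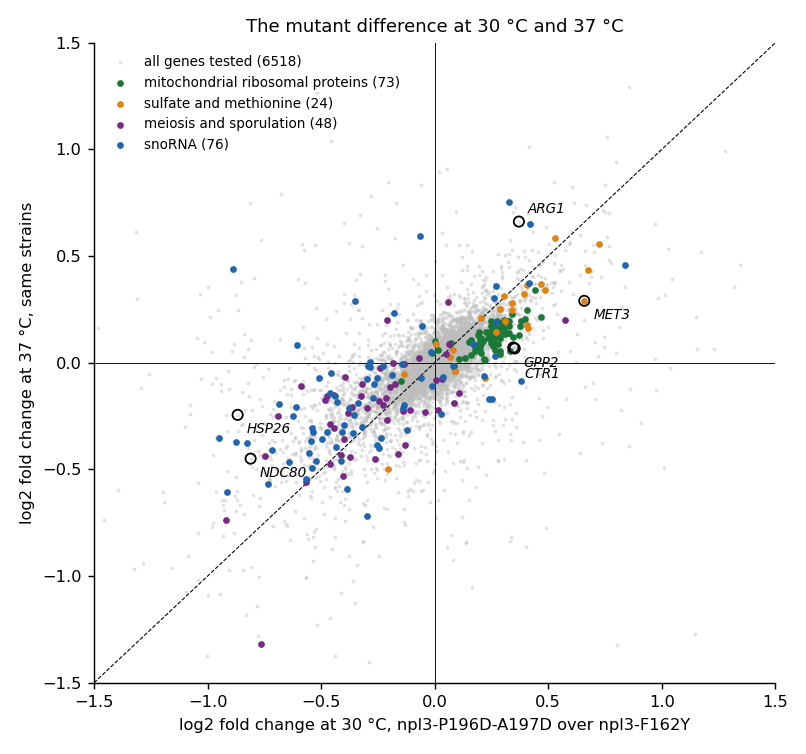
The x axis gives the log2 fold change of npl3-P196D-A197D over npl3-F162Y at 30 °C and the y axis the same at 37 °C, for all genes tested (grey) and 4 lists (colours), with 6 genes of the temperature interaction circled and the dashed line marking equal values; genes beyond 1.5 in either direction lie outside the axes. The mitochondrial ribosomal protein genes have medians of 0.25 at 30 °C and 0.12 at 37 °C.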

How the data were processed

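The authors deposited 1 table of raw counts, with a row per gene and a column for each of the 24 libraries. Per the submitters' processing notes, reads were checked with FastQC, mapped to build R64 by STAR 2.7.2a, and HTSeq did the counting. The strand setting used for counting was not stated in these sources. Summary rows that name no gene were left out, and reads in no feature and ambiguous reads were not used. Of 7127 features, 6047 were found in the reference gene table under their systematic names.

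After edgeR's default expression filter and TMM scaling, all 24 libraries entered 1 fit with a coefficient for each group in edgeR 4.0.16 in R 4.3.3 (quasi-likelihood test, robust, 16 residual degrees of freedom, common biological coefficient of variation 5.26%). Benjamini-Hochberg adjustment ran over the 6518 genes tested, at 0.05 with no minimum fold. SEs were derived from the log2 fold change and the F statistic. The steps were tested on simulated data.

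The comparison, the 59 gene lists and the motifs were chosen with earlier results of these data known, so list counts are descriptions and have no test of their own. Genes were named by rule, besides NPL3. The rule took the 10 largest changes each way among protein-coding genes called, with a standard name, a mean CPM of 10 or more and non-overlapping groups. Retrotransposon and strain marker genes were left out of that ranking. From each list it took up to 3 called members with the largest absolute change at that level. Names outside the rule are marked in the text, apart from LEU2, the mating-type markers and near-identical copies. Near-identical copies (95% identity or more along 100 bases or more) were looked for with BLAST: 8 of 168 named genes had one and 3 overlapped another gene. Alternatives were other size factors (RLE, upper quartile), other filters, DESeq2 1.42.0, a fit of only the libraries compared, replicate number as a block, counts thinned to the smallest library and leaving out libraries.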

Additional observations from a re-analysis of the deposited data

Results flagged for a closer look

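In 7 genes named above the difference between the linker mutant and the first-motif mutant at 37 °C was not the same as at 30 °C, tested as an interaction in edgeR with Benjamini-Hochberg adjustment over all genes. Values are the log2 difference at 37 °C minus that at 30 °C. HSP26 changed by 0.62327 (adjusted p 4.07e-05 to 0.0536 over 22 settings) and NDC80 by 0.36107 (0.000213 to 0.0884). ARG1 changed by 0.29111 (1.77e-06 to 0.0508) and MET3 by -0.36818 (4.07e-05 to 0.0304). GPP2 changed by -0.2854 (0.00292 to 0.159) and CTR1, the copper transporter gene, by -0.27458 (0.000213 to 0.1004). TIR1, a cell wall mannoprotein gene chosen after its values were seen, changed by 0.91568 (0.000213 to 0.0714 over 21 settings, as it was not tested at a mean of at least 10 CPM). It averaged 7.82 CPM in the linker mutant and 12.9 CPM in the first-motif mutant at 37 °C, against 4.22 CPM in the linker mutant and 13.1 CPM in the first-motif mutant at 30 °C. MET3 passed in all 22 settings, HSP26 and ARG1 in 21, NDC80 in 15, CTR1 in 14 and GPP2 in 6, and TIR1 in 18 of 21. CTR1 averaged 838 CPM in the linker mutant and 797 CPM in the first-motif mutant at 37 °C, against 775 CPM in the linker mutant and 610 CPM in the first-motif mutant at 30 °C.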

How the results depend on the processing

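None of 167 named genes changed sign at 30 °C under an alternative, but medians near 0 changed sign: that of all genes was 0.0087 and became -0.0013 with upper-quartile factors and -9e-04 with only the libraries compared. At a mean of at least 10 CPM 773 genes were higher and 773 lower, and the hexose transporter median was 0.03 in place of -0.15. Of 918 higher and 724 lower genes, leaving out each of the 6 libraries in turn left 643 to 823 higher and 542 to 649 lower. A fit of only the 6 libraries compared called 1257 lower genes, and replicate number as a block in that fit called 1188, while as a block over all 24 libraries it called 985 higher and 761 lower. The replicate numbers do not pair the samples: same-numbered libraries of the 2 mutants had residual correlations of -0.0678, -0.0888 and -0.0539 across 5382 genes. DESeq2 called 934 higher and 751 lower (253 adjusted p not given). A fit limited to genes with a mean of at least 10 CPM called 3 genes with a 2-fold change, against 20. Leaving out 1 library gave 21 to 24. At 37 °C the count of 1257 ranged from 847 to 1232 when 1 library was left out. The interaction count of 18 was 44 with DESeq2, 36 with only the libraries compared, 50 with the replicate block in that fit, 8 without replicate 2 of each strain at 37 °C and 8 to 19 with 1 library left out. The NPL3 difference ranged from 0.22923 to 0.32099 with 1 library left out, and passed in every setting. The higher share of all calls was 55.9%, and 50 to 57.0% over the settings. Of 167 named genes, 7 to 17 no longer passed when 1 library was left out.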
